A study of Homo sapiens with 12 samples.

Results

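The MYC network is a set of transcription factors that share a helix-loop-helix zipper and bind DNA as pairs. The 10 genes described here were chosen by symbol, as MYC, MYCN, MYCL, MAX, MXD1, MXD3, MXD4, MNT, MGA and MLX, among the 60660 genes quantified in each library. Counts above 0 were found for all 10 in at least 1 library. The libraries are bulk mRNA of LNCaP and 22Rv1, both established human PCa cell lines, transfected with a negative control oligo (NC-mimic) or with piR-4447944 mimic, a synthetic copy of a PIWI-interacting RNA. Each of the 4 groups has 3 libraries, and the cells of every group were kept under androgen deprivation, with CS-FBS (charcoal-stripped serum) as 10% of the medium. Each group is 1 cell line, so the replicates are libraries of that line. No label says that they came from separate cultures, and p-values therefore measure the spread between these libraries only.

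MYC, MYCN and MYCL activate transcription when paired with MAX, the obligate partner of the family. MXD1, MXD3, MXD4, MNT and MGA also pair with MAX, and the MXD proteins and MNT recruit SIN3 corepressors to the same sites, the E-boxes. MLX is a MAX-like protein that pairs with MLXIP and MLXIPL, which respond to glucose metabolites, and with some MXD proteins and MNT. In PCa, MYC is a frequently amplified oncogene, MYCN is known from neuroendocrine disease, and MYCL from a subset of localised tumours.

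The palindromic E-box CACGTG, which reads the same on both strands, was searched from 250 bases before to 50 bases after the start sites of RefSeq (GRCh38.p14). It is shown because it is the site these proteins bind. Of 9 members with a promoter window, 3 held it, beside 8.78% of the 27305 genes with such a window. MYC itself had no window and was not searched. The capitals mark the E-box. The 3 stretches are chr4:2262330-2262359 on the minus strand for MXD4, chr17:2401236-2401265 on the minus strand for MNT and chr17:42567038-42567067 on the plus strand for MLX.
MXD4: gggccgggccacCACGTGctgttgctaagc
MNT: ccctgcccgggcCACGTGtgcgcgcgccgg
MLX: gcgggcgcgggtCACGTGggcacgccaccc
The first base of the E-box lies 238 bases before the start site in MXD4, 193 in MNT and 50 in MLX. These matches are a description of the letters and not a measurement of binding.

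The study asked whether the piRNA lowers mRNAs by pairing with their 3'UTRs. To predict targets, the study used the miRanda program with cutoffs on alignment score and binding energy, which was not run here. The 7 letters ATAGCTT can pair with bases 2 to 8 of the piRNA. These letters were searched instead, on the sense strand of the canonical 3'UTRs of GENCODE v44 (hg38). They occur in 3 of the 10 members and in 9.92% of 19959 canonical 3'UTRs. MYCL holds 2 matches in 1947 bases, where 11.4% of 3'UTRs of like length hold at least 1. MXD1 holds 1 in 4664 bases, where 27.9% of like-length 3'UTRs hold it, and MYCN 1 in 910 bases, where 5.37% do. The capitals mark the match. The stretches are chr2:69941271-69941297 (plus strand) for MXD1, chr1:39896513-39896539 and chr1:39895677-39895703 (minus strand) for MYCL, and chr2:15946979-15947004 (plus strand) for MYCN.
MXD1: tcctgaaaacATAGCTTtccatcccct
MYCL first: gggcctggggATAGCTTggagtcctgg
MYCL second: tctcaactgaATAGCTTgtgttttata
MYCN: atgaaaataaATAGCTTaaaattaaa
The expression of these 3 genes under the mimic is given below with that of the others. No match was found in the 3'UTRs of MYC, MAX, MXD3, MXD4, MNT, MGA and MLX. Sites of the kind that miRanda scores were not searched in any member.

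Total expected counts were between 12161091 and 22179601 per library. The luminal prostate markers HOXB13, KRT8 and KRT18 were at 10 TPM or more in all 12 libraries, and the 3 basal markers KRT5, KRT14 and TP63 were below 1 TPM in all. The endothelial marker CDH5 was at 0 throughout. Replicate 3 of 22Rv1 stood apart in both groups, and its comparison with its fellow replicates gave chi-square values per gene of 41.4 to 118, where replicates 1 and 2 gave 7.55 and 8.80. In the piR-4447944 mimic replicate 3 of 22Rv1 the summed TPM of 7 genes known to rise in low oxygen was 2518, against 123.3 to 328 in the other 22Rv1 libraries. Mitochondrially encoded genes took 4.37% of its TPM, against 8.74% to 11.9% in all other libraries, and 8 proliferation genes summed to 397 TPM, against 802 to 1283 in the other 22Rv1 libraries and 500 to 641 in LNCaP. Results are therefore given with and without the replicate 3 libraries. In bulk RNA, fewer cells of a kind and less RNA per cell cannot be told apart.

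Levels are given first as TPM, which is scaled by gene length and so allows genes to be compared. MYC had the highest TPM of the 10 in each of the 4 groups. With NC-mimic the order in LNCaP was MYC (196 ± 17.97 TPM, SD, n = 3), MLX (70.8 ± 5.88), MXD4 (66.8 ± 5.25), MAX (45.4 ± 7.53), MNT (23.1 ± 1.57), MXD3 (19.9 ± 4.82), MGA (17.98 ± 0.970), MYCL (4.67 ± 0.959), MXD1 (3.49 ± 0.881) and MYCN (0). The libraries overlapped between MLX and MXD4, between MNT and MXD3, between MXD3 and MGA, and between MYCL and MXD1. These neighbours therefore did not differ beyond their spread, while MNT lay above MGA without overlap. In 22Rv1 the order was MYC (135 ± 14.7 TPM), MLX (61.9 ± 9.27), MXD3 (56.1 ± 14.7), MAX (44.5 ± 24.4), MNT (17.8 ± 1.66), MGA (17.8 ± 1.63), MXD4 (14.4 ± 0.817), MXD1 (3.63 ± 0.732), MYCL (3.05 ± 1.10) and MYCN (0.653 ± 0.583). There the libraries of MLX, MXD3 and MAX overlapped, as did those of MNT with MGA and of MXD1 with MYCL. Between the lines MXD4 and MXD3 exchanged places, as the plot of TPM in every library shows.

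MYC, the main activator, took between 93.7% and 98.1% of the summed TPM of MYC, MYCN and MYCL in every library. Its TPM was 195, 179 and 215 in LNCaP with NC-mimic and 170, 179 and 198 with piR-4447944 mimic. In 22Rv1 it was 124, 152 and 130 with NC-mimic and 110, 133 and 98.7 with the mimic. Every 22Rv1 library lay below every LNCaP library. On counts, MYC was lower in 22Rv1 than in LNCaP by a log2 fold change of -0.44 ± 0.12 (SE, 3 against 3 libraries) with NC-mimic, a 1.36-fold difference (adjusted p = 0.0110, edgeR quasi-likelihood test with Benjamini-Hochberg adjustment over all genes). With piR-4447944 mimic the difference was -0.67 ± 0.13, or 1.59-fold (adjusted p = 0.00522, edgeR). MYC kept this call without the replicate 3 libraries, at -0.34 (adjusted p = 0.0100) and -0.52 (adjusted p = 1.48e-04).

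The share of all genes that differed between the lines was large. With NC-mimic 58.4% of 17497 genes passed an adjusted p of 0.05, 30.9% higher and 27.5% lower in 22Rv1, and with piR-4447944 mimic 52.4% of 17283 genes did, 28.2% higher and 24.2% lower. Of the 10 members, 9 passed the filter on low counts, all but MYCN. With NC-mimic, 5 of these 9 were called, MXD3 as higher in 22Rv1 and MXD4, MYC, MAX and MNT as lower. With the mimic 3 were called, MXD3 as higher and MXD4 and MYC as lower. The median log2 fold change of the 9 was -0.34 with NC-mimic and -0.17 with the mimic, beside 0.02 and 0.04 over all genes tested. Libraries of the lines did not overlap in CPM (counts scaled to a common library size with TMM factors) for 6 of these 9 members with NC-mimic and 3 of 9 with the mimic, beside 67.2% and 64.5% of all genes. MYCN, which was not tested, was also apart with the mimic. Without the replicate 3 libraries 7 of 10 members were called with the mimic, with MAX, MYCL, MGA and MYCN added, beside 67.6% of all genes. With NC-mimic 6 of 10 were called, with MYCL and MYCN added and MNT lost, beside 65.2%.

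Of the 9 tested members, MXD4 had the largest fold difference between the lines with NC-mimic and with the mimic. It is an MXD repressor found in differentiated cells. Its TPM was 67.2, 61.3 and 71.8 in LNCaP with NC-mimic and 14.8, 13.5 and 15.0 in 22Rv1. The ranges were far apart. MXD4 was 4.43-fold lower in 22Rv1 on counts (log2 fold change -2.15 ± 0.12, adjusted p = 3.58e-06, edgeR). With piR-4447944 mimic the TPM was 62.0, 69.6 and 66.7 in LNCaP and 17.96, 15.7 and 31.8 in 22Rv1, and the difference was 2.99-fold (-1.58 ± 0.28, adjusted p = 0.00318, edgeR). Replicate 3 was the highest of these 22Rv1 libraries, and without the replicate 3 libraries the difference was -1.98 (adjusted p = 1.99e-08).

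MXD3, a family member linked to dividing cells, went the other way. Its TPM was 25.5, 16.7 and 17.6 in LNCaP and 62.5, 66.5 and 39.2 in 22Rv1 with NC-mimic. It was 21.4, 18.4 and 20.8 in LNCaP and 82.0, 67.6 and 41.9 in 22Rv1 with the mimic. Replicate 3 was the lowest 22Rv1 library in both groups but still above every LNCaP library. MXD3 was 2.77-fold higher in 22Rv1 with NC-mimic (log2 fold change 1.47 ± 0.21, adjusted p = 5.18e-04, edgeR) and 2.88-fold higher with the mimic (1.53 ± 0.22, adjusted p = 0.00130, edgeR). The summed TPM of 8 proliferation genes was also higher in 22Rv1, at 802 to 1283 in all libraries but piR-4447944 mimic replicate 3, than in LNCaP, at 500 to 641, and its part in the MXD3 difference was not tested.

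MXD1, a target of differentiation signals, stayed between 2.47 and 6.93 TPM in all 12 libraries. It did not pass the test between the lines (0.12 ± 0.24 with NC-mimic and 0.35 ± 0.23 with the mimic). The shares of MXD3 and MXD4 among the 3 MXD members did not overlap between the lines. MXD4 took 74.2% ± 4.34 (SD, n = 3) of the summed TPM of MXD1, MXD3 and MXD4 in LNCaP with NC-mimic and 72.9% ± 2.39 with the mimic. In 22Rv1 it took 20.03% ± 4.93 and 24.9% ± 12.6, and MXD3 took 74.8% ± 6.95 and 69.5% ± 15.2. The highest MXD4 share of a 22Rv1 library, 39.4% in piR-4447944 mimic replicate 3, was below the lowest of LNCaP, 69.5%. These shares use TPM, so the summed TPM of the 3 genes stands beside them, 90.2 ± 7.53 in LNCaP and 74.1 ± 13.5 in 22Rv1 with NC-mimic. MXI1, a further MXD family gene that is not in these shares, had 48.7 ± 5.36 and 42.1 ± 4.23 TPM in the same groups.

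**Figure D1:**
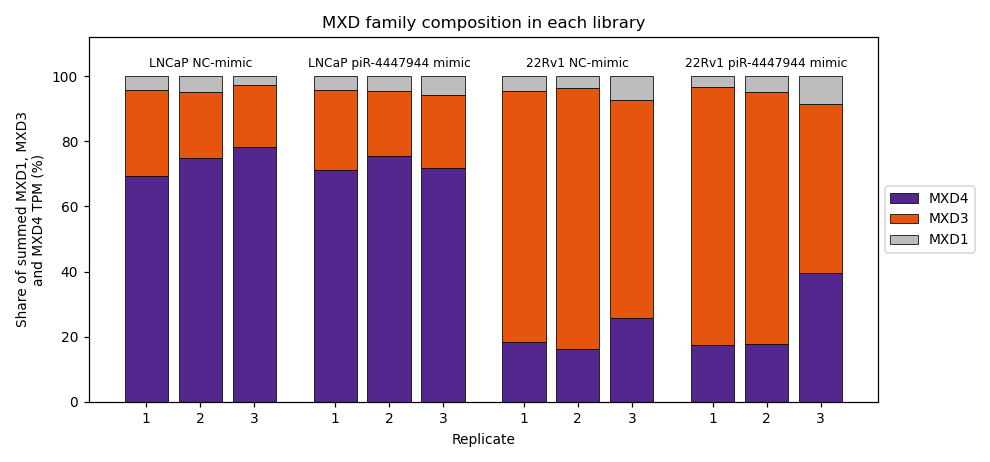
Share of the summed TPM of MXD1, MXD3 and MXD4 (percent) taken by each gene, 1 bar per library. MXD4 takes between 69.5% and 78.1% in the 6 LNCaP libraries and between 16.3% and 39.4% in the 6 of 22Rv1.

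MAX, the common partner, had 48.1, 47.1 and 54.9 CPM in LNCaP and 36.6, 39.8 and 29.96 in 22Rv1 with NC-mimic. No 22Rv1 library reached an LNCaP library, and the log2 fold change was -0.50 ± 0.14 (1.42-fold lower, adjusted p = 0.0128, edgeR). The TPM gave another picture, 44.9, 38.2 and 53.2 in LNCaP against 34.5, 72.3 and 26.7 in 22Rv1, with overlap. RSEM assigned MAX a transcript length of 952 bases in 22Rv1 NC-mimic replicate 2, where the TPM was 72.3, and between 1454 and 1916 bases in the other 11 libraries. With limma on log2(TPM + 1) the MAX difference was -0.15 (adjusted p = 0.736). With piR-4447944 mimic MAX differed by -0.25 ± 0.14 on counts (adjusted p = 0.170, edgeR), and without the replicate 3 libraries by -0.41 (adjusted p = 0.00263).

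MNT, a repressor present in resting and dividing cells, had 22.7, 21.8 and 24.9 TPM in LNCaP and 19.6, 17.5 and 16.4 in 22Rv1 with NC-mimic. These ranges did not overlap, and the difference was -0.34 ± 0.12 (1.27-fold lower, adjusted p = 0.0345, edgeR). The call was lost without the replicate 3 libraries (-0.25, adjusted p = 0.0694) and when 1 of 4 single libraries was left out, LNCaP replicate 1 or 3 or 22Rv1 replicate 1 or 2 (adjusted p between 0.0751 and 0.1003). MNT was also not called in one edgeR fit over all 12 libraries (adjusted p = 0.124) or by limma on log2(TPM + 1) (adjusted p = 0.0512). With the mimic the estimate was 0.06 ± 0.21, and without 22Rv1 mimic replicate 3 it was -0.21 (adjusted p = 0.0464). Without the replicate 3 libraries of both lines it was also -0.21, but not called (adjusted p = 0.0689). MGA, the giant member of the family and part of a variant polycomb complex, lay between 11.9 and 19.8 TPM in all libraries. Its count difference was 0.18 ± 0.10 with NC-mimic and 0.18 ± 0.13 with the mimic, neither called, while without 22Rv1 mimic replicate 3 the latter was 0.30 (adjusted p = 0.00203). On the TPM scale MGA turned to -0.02 and -0.18. MLX differed by -0.05 ± 0.10 and -0.17 ± 0.14 between the lines and was not called.

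MYCN had expected counts of 34, 25 and 0 in 22Rv1 with NC-mimic and 14, 29 and 5 with piR-4447944 mimic, and 0 in all 6 LNCaP libraries. The highest TPM was 1.12. Summed over 3 libraries, 59 counts against 0 with NC-mimic put MYCN 21.9-fold higher in 22Rv1 if LNCaP is set to a floor of 3 counts over the group. With the mimic, 48 against 0 gave 16.3-fold in the same way. The floor allows for counting error in the LNCaP zeros only, and the 22Rv1 counts were taken as exact. Replicate 3 of 22Rv1 with NC-mimic was itself at 0. The gene MYCNOS overlaps MYCN on the opposite strand, and since the strand setting of the counting is not known here, reads of the pair cannot be told apart. MYCL was between 3.6 and 5.45 TPM in LNCaP and between 1.67 and 6.36 in 22Rv1. It differed by -0.66 ± 0.32 with NC-mimic (adjusted p = 0.109, edgeR) and by -0.43 ± 0.50 with the mimic (adjusted p = 0.493). Both 22Rv1 replicate 3 libraries held the highest MYCL of their groups. Without them and LNCaP replicate 3, MYCL was lower in 22Rv1 by -0.92 (adjusted p = 0.00723) and -1.20 (adjusted p = 0.00558), and MYCN was called as higher.

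Exons of other genes overlap several members in GENCODE v44, which matters for reads whose strand is unknown. On the opposite strand these include CASC11 for MYC, MYCL-AS1 for MYCL, FNTB for MAX, PRELID1 for MXD3 and PSMC3IP for MLX. On the same strand, named genes include SNRNP27 for MXD1, RAB24 for MXD3 and MIR4800 for MXD4. The MXD4 gene lies on hg38 at chr4:2247432-2262109 (minus strand), MXD3 at chr5:177301461-177312757 (minus strand), MYC at chr8:127735434-127742951 (plus strand) and MLX at chr17:42567072-42573239 (plus strand).

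The question of the study was what piR-4447944 mimic changes within each line. In LNCaP 0 of 9 tested members passed an adjusted p of 0.05 with edgeR, where 0% of 16244 genes did, and DESeq2 and limma called 0 members as well. At an unadjusted p of 0.05, 1 member passed, MLX, beside 2.67% of all genes. By the study's criterion (p below 0.05 before adjustment and an absolute log2 fold change over 0.2) 0 members passed, beside 2.22%. Here and below these cutoffs were put on the edgeR fits, while the study used DESeq2 with shrunken fold changes. The largest absolute log2 fold change of the 9 was 0.15, and their median was -0.04 beside -0.003 over all genes. The CPM groups did not overlap for 1 member, beside 7.86% of all genes.

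MLX, the partner of the glucose-responsive factors, had 75.8, 72.4 and 64.3 TPM in LNCaP with NC-mimic and 61.2, 62.9 and 61.1 with piR-4447944 mimic. Every mimic library was below every control library. The log2 fold change was -0.15 ± 0.07, with p = 0.0412 before and 0.999 after adjustment in edgeR, and an exact two-sided permutation p of 0.1, which is the smallest that 3 against 3 libraries allow. MYC gave -0.05 ± 0.07 (adjusted p = 0.999, edgeR) with overlapping libraries. The other 7 tested members lay between -0.09 (MYCL) and 0.12 (MXD3). MYCL and MXD1, which hold the 3'UTR letters searched above, gave -0.09 ± 0.18 and 0.06 ± 0.16.

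In 22Rv1 all 10 members were tested and 0 passed an adjusted p of 0.05 with edgeR, DESeq2 or limma, where edgeR called 0% of 16898 genes. At an unadjusted p of 0.05, 0 members passed, beside 1.48% of all genes, and the same figures hold for the rule of the study. These counts depend on the fit. With all 12 libraries in one edgeR fit, 5 of the 10 members met the rule of the study, MXD4, MNT and MAX as higher and MYC and MLX as lower, with unadjusted p between 0.0270 and 0.0429, beside 6.58% of 18720 genes, and 0 passed an adjusted p of 0.05 (the smallest was 0.731). The median over the 10 members was 0.13, beside -0.005 over all genes. The spread between 22Rv1 libraries was wide, with a biological coefficient of variation of 0.343 in edgeR against 0.0964 in LNCaP.

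MYC was lower with the mimic on CPM and TPM in all 3 pairs of equal replicate number in 22Rv1. Whether equal numbers mark libraries that belong together is not known here. The estimate was -0.30 ± 0.17 (adjusted p = 0.999, edgeR), a 1.23-fold difference. With the replicate number as a block it was -0.30 ± 0.13 (unadjusted p = 0.0490, adjusted p = 0.869, edgeR), so that in the fit with the block MYC was the 1 member of the 10 to meet the rule of the study, beside 2.49% of all genes in that fit. Without the replicate 3 libraries it was -0.21 ± 0.11 (adjusted p = 0.976). MLX had 60.7, 71.7 and 53.3 TPM with NC-mimic and 56.0, 62.5 and 43.3 with the mimic, lower in 3 of 3 pairs, and its log2 fold change was -0.29 ± 0.17 (adjusted p = 0.999).

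The partner MAX and the repressors MXD4 and MNT were higher with the mimic on CPM in all 3 pairs. The share of all genes that agree in 3 of 3 pairs was not counted, here or for MYC and MLX above. On TPM, MNT replicate 1 (19.6 with NC-mimic and 17.9 with the mimic) and MAX replicate 2 (72.3 and 45.8) went the other way. On counts, MXD4 gave 0.50 ± 0.27, MNT 0.43 ± 0.20 and MAX 0.33 ± 0.18 (adjusted p = 0.999 for each, edgeR). The MNT CPM groups did not overlap, at 45.2, 45.1 and 43.96 against 49.7, 50.7 and 81.1, and replicate 3 was by far the highest. MNT was the 1 member of the 10 with CPM groups apart, beside 8.78% of all genes. Without the replicate 3 libraries the estimates were 0.15 ± 0.12 for MXD4, 0.16 ± 0.11 for MNT and 0.10 ± 0.12 for MAX. The low oxygen sum, the mitochondrial share and the proliferation sum stood apart in the same library, and their part in these values was not tested. MXD1, MXD3, MGA, MYCL and MYCN gave estimates between -0.14 and 0.27 with overlapping libraries. MYCL and MYCN, both with the 3'UTR letters, had SEs of 0.55 and 1.13, so their estimates of 0.10 and -0.14 carry little precision. MXD1, which also holds these letters, gave 0.27 ± 0.27.

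The difference of the mimic effect between the lines, tested as an interaction over all 12 libraries, was called for 0 of 10 members in edgeR, where 0% of 18720 genes were called, and for 0 at an unadjusted p of 0.05, beside 3.26%. DESeq2 and limma called 0 members. The smallest unadjusted p was 0.104, for MXD4 (0.55 ± 0.31). MYC gave -0.24 ± 0.18 and MNT 0.39 ± 0.24. For MYCN, at 0 in LNCaP, the difference could not be estimated. The ratio of MYC TPM to the summed TPM of MXD1, MXD3, MXD4 and MNT was 1.73 ± 0.105 and 1.59 ± 0.0734 in LNCaP with NC-mimic and mimic, and 1.495 ± 0.249 and 0.982 ± 0.183 in 22Rv1 (SD, n = 3). In 22Rv1 each mimic library, at 0.910, 1.19 and 0.845, was below each NC-mimic library, at 1.24, 1.52 and 1.73. This ratio was formed after the levels were seen and is given as a description, with no test.

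The other factors of the network were MXI1, a further MXD family repressor, and the MLX partners MLXIP and MLXIPL. MXI1 had 41.8, 38.1 and 46.5 TPM in 22Rv1 with NC-mimic and 33.5, 44.99 and 110 with the mimic. Replicates 1 and 2 with the mimic lay within or below the range of the controls and replicate 3 far above it. The log2 fold change was 0.61 ± 0.41 (adjusted p = 0.999, edgeR) and 0.003 ± 0.13 without the replicate 3 libraries. In LNCaP MXI1 gave -0.23 ± 0.08 (unadjusted p = 0.0102, adjusted p = 0.999, edgeR). The TPM of these libraries overlapped, and limma on log2(TPM + 1) gave -0.05 (unadjusted p = 0.632). Between the lines with NC-mimic MXI1 was lower in 22Rv1 (-0.34 ± 0.11, adjusted p = 0.0246, edgeR) and MLXIPL higher (0.74 ± 0.25, adjusted p = 0.0324), while MLXIP did not pass (-0.04 ± 0.10). Each of the called pair lost its call when 1 of 4 single libraries was left out, at an adjusted p between 0.0641 and 0.0854 for MXI1 and between 0.0607 and 0.114 for MLXIPL. In one edgeR fit over all 12 libraries neither was called, with an adjusted p of 0.415 for MXI1 and 0.0586 for MLXIPL. On log2(TPM + 1) neither was called by limma, with -0.20 (adjusted p = 0.219) for MXI1 and 0.29 (adjusted p = 0.455) for MLXIPL. With the mimic MXI1 gave 0.54 ± 0.42 (adjusted p = 0.313, edgeR) and MLXIPL 0.92 ± 0.35 (adjusted p = 0.0609), and without the replicate 3 libraries MLXIPL gave 0.66 (adjusted p = 0.0291).

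TXNIP, an inhibitor of glucose uptake, and ARRDC4, a related arrestin, are known targets of MLX with its partners. TXNIP had 188, 204 and 237 TPM in 22Rv1 with NC-mimic and 199, 201 and 442 with the mimic. ARRDC4 had 7.16, 6.81 and 10.3 TPM and 6.10, 8.09 and 24.5. In both, replicate 3 with the mimic was the highest and the other libraries overlapped. The log2 fold changes were 0.37 ± 0.32 and 0.59 ± 0.50, and -0.01 and -0.02 without the replicate 3 libraries. Between the lines with NC-mimic ARRDC4 was lower in 22Rv1 by -0.53 ± 0.18 (adjusted p = 0.0303, edgeR), and TXNIP did not pass (-0.04 ± 0.13). The ARRDC4 call was lost in the fit over all 12 libraries (adjusted p = 0.296) and when 1 of 5 single libraries was left out (adjusted p between 0.0753 and 0.0944), all but 22Rv1 replicate 3. With the mimic ARRDC4 gave 0.06 ± 0.50 (adjusted p = 0.933, edgeR), and -0.60 (adjusted p = 0.00495) without the replicate 3 libraries.

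Genes that MYC is known to activate were described by counts and medians. Of 22 ribosome biogenesis genes, 0 were called with the mimic in either line by edgeR. Their median was -0.006 in LNCaP, where 9 estimates were positive and 13 negative, beside -0.003 over all genes. In 22Rv1 the median was -0.24, with 22 of 22 estimates negative, 0 of them at an unadjusted p under 0.05, beside a median of -0.005 over all genes. The separate list of 8 proliferation genes had a like pattern in 22Rv1, with a median of -0.25 and 8 of 8 estimates negative. DKC1, the pseudouridine synthase of ribosomal RNA, gave -0.30 ± 0.16 and BOP1, a large subunit assembly factor, -0.26 ± 0.15 (adjusted p = 0.999 for both). Without the replicate 3 libraries the median of the ribosome biogenesis genes in 22Rv1 was -0.05, with 15 estimates negative and 7 positive. That of the proliferation genes was -0.02, with 6 negative and 2 positive. Of 19 metabolism and growth genes, 0 were called in either line, and the medians were 0.02 in LNCaP and -0.14 in 22Rv1. PTMA, the chromatin protein prothymosin alpha, had the smallest p in LNCaP (0.14 ± 0.06, adjusted p = 0.999) and gave -0.18 ± 0.13 in 22Rv1. HK2, the hexokinase of glycolytic tumours, gave 1.13 ± 0.56 in 22Rv1 and -0.002 without the replicate 3 libraries.

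Of 5 cell cycle genes that MYC activates, 4 were tested and 0 called with the mimic. CDC25A, the phosphatase that frees cyclin-dependent kinases, gave 0.08 ± 0.12 in LNCaP and -0.38 ± 0.33 in 22Rv1. Of 5 genes that MYC is known to repress, 0 were called. NDRG1, a gene also known to rise in low oxygen, gave 2.10 ± 1.10 in 22Rv1 (adjusted p = 0.999, edgeR) and -0.12 without the replicate 3 libraries. CDKN1B, the inhibitor p27, gave 0.13 ± 0.13. Of 14 cofactors and corepressors 0 were called in either line, with medians of 0.02 and 0.003, and of 8 genes for the turnover of MYC protein 0, with medians of 0.001 and 0.02. RUVBL1, an ATPase that binds MYC, gave -0.28 ± 0.17 in 22Rv1, and FBXW7, the ubiquitin ligase subunit that marks MYC for decay, 0.53 ± 0.34, with 0.03 without the replicate 3 libraries.

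Between the lines most lists had called genes, which stand beside the 58.4% of all genes with NC-mimic and 52.4% with the mimic. With NC-mimic 8 of 22 ribosome biogenesis genes were higher in 22Rv1 and 2 lower, with a median of 0.14 beside 0.02 over all genes. MRTO4 (1.01 ± 0.10) and GRWD1 (0.84 ± 0.10), both assembly factors, were higher, and GNL3, or nucleostemin, lower (-0.70 ± 0.11). With the mimic 3 were higher and 6 lower, and the median was -0.12 beside 0.04. Of 19 metabolism and growth genes 6 were higher and 6 lower with NC-mimic. SLC7A5, the transporter of large neutral amino acids, was 37.7-fold higher in 22Rv1 (log2 fold change 5.24 ± 0.19, adjusted p = 6.14e-07, edgeR). HK2 was 3.50-fold and SHMT2, the mitochondrial serine hydroxymethyltransferase, 2.94-fold higher. With the mimic SLC7A5 was 32.9-fold higher, HK2 7.59-fold and SHMT2 3.09-fold. The HK2 difference with the mimic was 2.92 on the log2 scale, and 1.99 (adjusted p = 1.07e-06, edgeR) without the replicate 3 libraries.

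Of the 4 cell cycle genes tested, 3 were higher in 22Rv1 with NC-mimic, E2F1 by 1.16 ± 0.13, CDK4 by 0.61 ± 0.11 and TERT by 0.54 ± 0.20, the last with an adjusted p of 0.0534 in edgeR without the replicate 3 libraries. With the mimic only CDK4 of the 4 passed (0.44 ± 0.14). CDKN1B was the 1 called gene of the 5 MYC-repressed, 2.54-fold higher in 22Rv1 with NC-mimic and 2.69-fold with the mimic. Of the 14 cofactors and corepressors, 6 were higher and 2 lower with NC-mimic. ZBTB17, or MIZ1, through which MYC represses genes, was higher by 1.08 ± 0.14 and RUVBL2 by 0.96 ± 0.13, while SIN3B, the corepressor of MXD proteins, was lower by -0.76 ± 0.09. With the mimic 6 genes of this list were higher and 3 lower. Of the 8 turnover genes 4 were higher and 2 lower with NC-mimic. AURKA, a kinase that stabilises MYCN protein, was higher (0.65 ± 0.18), as was FBXW7 (0.57 ± 0.15), and HUWE1, a ubiquitin ligase of MYC, was lower (-1.02 ± 0.09). With the mimic 2 turnover genes were higher, FBXW7 (1.11 ± 0.36) and USP36 (0.545 ± 0.14). HUWE1 was the 1 lower gene (-0.94 ± 0.09), and AURKA was not called.

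The genes whose levels were most like those of MYC were found by Pearson's r of log2 CPM over the 12 libraries, after the mean of each line was taken away, among 18720 genes. They were RNF157 (r = 0.952), LRRC8C-DT (0.945), KLK3 (0.934), HDLBP (0.928) and HM13 (0.924). Without the replicate 3 libraries, over 8 libraries, r was 0.961, 0.885, 0.947, 0.858 and 0.877. KLK3 encodes PSA, a secreted protease of luminal prostate cells. Among the members MLX was most like MYC, with r = 0.878 over 12 libraries and 0.870 over 8. MXD1, MXD4 and MNT had negative values of -0.75, -0.70 and -0.66, and -0.58, -0.66 and -0.43 without replicate 3. MXD3, also an MXD gene, was positive at 0.25, and at 0.15 without replicate 3. MAX gave -0.47 and MXI1 -0.63, and 0.13 and -0.12 without replicate 3. In the same order MYCL gave -0.39 and -0.14, MGA 0.37 and -0.40, and MYCN 0.26 and 0.70. The share of all genes with values of this size was not counted. These values describe 12 libraries that share lines, transfection groups and depth and carry no p.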

How the data were processed

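Per the labels and the methods of the study, reads were aligned to hg38 with STAR 2.7.1a and quantified with RSEM 1.3.0, and the submitters' notes also name R 4.1.1 and DESeq2 1.34.0. Trimming, the strand setting, the annotation release and the time from transfection to RNA were not given in the sources used here. Each library has a deposited table of expected counts, which RSEM estimates per gene without normalization, dividing reads that match several genes. The deposited TPM correct these for effective length and sum to the same total in every library, so a high gene lowers the others. A common TPM table the authors deposited was not used here.

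Expected counts were rounded and tested with edgeR 4.0.16 in R 4.3.3 (TMM, filterByExpr, quasi-likelihood test), per comparison of 3 against 3 libraries and over 12 for the interaction, with Benjamini-Hochberg adjustment over all genes. The members, the gene lists and the tests were chosen with earlier results of these data known. Named genes were the 10 members, MXI1, MLXIP, MLXIPL, TXNIP and ARRDC4, of each pathway list per comparison up to 3 called genes with the largest change or else the 2 with the smallest p, and the 5 genes most like MYC. Of 60660 gene identifiers, 60463 matched GENCODE v44, all 10 members included. The fits were tested on simulated counts. Libraries held 0 identical pairs. Some luminal markers that were set for the check of cell type are not reported here.

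Correlations across genes of deviations from the group means were 0.198, 0.167 and 0.355 for equal replicate numbers in 22Rv1. In LNCaP they were 0.0211, 0.00504 and 0.189. The deviations cancel within each group. A shift shared by the replicate 3 libraries of 22Rv1 therefore also raises the values of replicates 1 and 2. For this reason the correlations cannot decide whether equal numbers mark paired libraries. The main fits have no replicate block, and the fit with the block is one of the alternatives.

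Alternatives were DESeq2 1.42.0, DESeq2's size factors in edgeR, no filter on low counts, a minimum of 10 counts per library, limma 3.58.1 on log2(TPM + 1) and log2(TPM + 0.1) for genes of at least 1 TPM in 3 libraries, the replicate number as a block, one fit over 12 libraries, and leaving out libraries. Fold changes on the log2(TPM + pseudocount) scale understate changes of low genes.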

Additional observations from a re-analysis of the deposited data

How the results depend on the processing

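The counts of called members were 0 for the mimic in LNCaP, in 22Rv1 and for their difference under every alternative run. Between the lines, limma on log2(TPM + 1) called 3 members with NC-mimic in place of 5, and with the mimic 7 were called without both replicate 3 libraries in place of 3. Leaving out single libraries gave between 4 and 7 members with NC-mimic and between 3 and 8 with the mimic, the highest without 22Rv1 mimic replicate 3. Over all genes the mimic in LNCaP gave 2 calls with DESeq2, 46 with no low-count filter, 1 with each limma fit and 5 without both replicate 3 libraries, and 0 to 2 with single libraries left out, 2 of them without NC-mimic replicate 3. In 22Rv1 it gave 1 with DESeq2, 2 and 3 with limma at pseudocounts of 1 and 0.1 and 4 without both replicate 3 libraries. The difference gave 3 with DESeq2, 2 and 1 with limma, 1 without both replicate 3 libraries and 0 to 1 with single libraries left out, the 1 without 22Rv1 mimic replicate 1. On the log2(TPM + 1) scale the median of all genes between the lines with NC-mimic was -0.11 in place of 0.02. The causes were not tested.

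With the replicate block, MNT between the lines with NC-mimic had an adjusted p of 0.0665 and MXI1 of 0.0535, MLXIPL with the mimic was called (0.0455), and 4 members were called in place of 5. The block left all other calls of members by adjusted p as they were, and it turned MYCN (0.25) and MYCL (-0.051) for the mimic in 22Rv1 and ARRDC4 (-0.18) between the lines with the mimic. Equal replicate numbers are not known to pair libraries within either line or between the lines. In LNCaP 508 genes met the rule of the study with the block and 361 without it.

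Other estimates changed sign. Without both replicate 3 libraries, for the mimic in LNCaP MYCL was 0.026, MXD1 -0.10 and MXD4 0.032, and in 22Rv1 MYCL was -0.27, MGA 0.042, TXNIP -0.014 and ARRDC4 -0.015. Between the lines MXD1 was -0.21 and MLXIP 0.062 with NC-mimic, and MNT -0.21, MXI1 -0.13 and ARRDC4 -0.60 with the mimic. On log2(TPM + 1) and log2(TPM + 0.1), MGA was 0.002 for the mimic in LNCaP, -0.019 and -0.020 between the lines with NC-mimic, and -0.18 and -0.19 with the mimic, where MAX was 0.008 and ARRDC4 -0.17 and -0.20. With single libraries left out, the mimic in LNCaP ranged from -0.094 to 0.027 for MYC, -0.22 to 0.034 for MYCL, -0.11 to 0.17 for MXD1, -0.12 to 0.045 for MXD4 and -0.038 to 0.14 for MNT. In 22Rv1 it ranged from -0.73 to 0.28 for MYCN, -0.65 to 0.48 for MYCL, -0.035 to 0.37 for MXD3, -0.19 to 0.07 for MGA, -0.064 to 0.89 for MXI1, -0.12 to 0.56 for TXNIP and -0.24 to 0.91 for ARRDC4, and the difference for MLX from -0.23 to 0.00. Between the lines with NC-mimic it ranged from -0.076 to 0.26 for MXD1, -0.14 to 0.01 for MLX, -0.093 to 0.041 for MLXIP and -0.14 to 0.054 for TXNIP, and with the mimic from -0.21 to 0.19 for MNT, -0.16 to 0.83 for MXI1 and -0.80 to 0.38 for ARRDC4.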
